A study of Mus musculus with 4 samples.

Results

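Gr1-low myeloid cells of the mouse bone marrow that lack the transcriptional repressor Gfi1 were compared with Gr1-low cells in which the Gfi1 locus was most active. The comparison rests on 2 of the 4 arrays of the series, 1 for each population, and covers 7976 measured genes of the 12394 genes named on the array. Both arrays were chosen by their labels, and no measured value entered the choice. The Gfi1-deficient cells were CD11b+ Gr1-low bone marrow cells with the genotype GFP:Gfi1 KI/KI, in which both Gfi1 alleles carry the knock-in of green fluorescent protein (GFP). Their label names no GFP gate. The GFP-high cells were CD11b+ Gr1-low bone marrow cells of heterozygous mice (GFP:Gfi1 KI/WT), gated for high GFP and therefore for high activity of the Gfi1 locus, and they keep 1 intact Gfi1 allele. The remaining arrays held GFP-low CD11b+ Gr1-low cells and CD11b+ Gr1-high granulocytes, both GFP:Gfi1 KI/WT. They are given here only as values set side by side. All mice were untreated C57BL/6 animals aged 8 weeks, from at least 10 generations of backcrossing, and were kept free of specific pathogens. Every group thus carries at least 1 knock-in allele, and no mouse with both alleles intact was measured. The labels do not say how many mice gave RNA for an array.

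Gfi1 is a zinc finger protein that recruits histone-modifying corepressors to its target genes. In blood formation it is known for holding back the monocytic programme, so that precursors shared by monocytes and neutrophils can become neutrophils, and Gfi1-deficient mice are known to lack normal neutrophils. Neutrophil granules are filled in sequence, first the primary (azurophil) granules with myeloperoxidase and serine proteases in dividing promyelocytes, then the secondary (specific) and tertiary (gelatinase) granules in myelocytes and later cells that leave the cell cycle. Bone marrow monocytes are marked by the receptors for colony-stimulating factor 1 and for the chemokine CCL2 and by the transcription factors Irf8 and Klf4.

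Levels are the deposited log2 values of the arrays, and where a gene has several probe sets the 1 with the highest average of the 4 arrays stands for it. Differences are log2 levels of Gfi1-deficient minus GFP-high cells, and a level below the floor of 5.18, the 40th percentile of all values, was set to the floor. Where 1 side lay below it the fold is a bound ("at least"), and genes below it on both arrays are called not measured. With 1 array a side there is no replicate check, no test was possible and no p-value is given. A gene is counted as higher or lower at 2-fold or more. How far probe sets of the same gene scatter, a log2 SD of 0.26 over 2674 genes, is the error estimate these arrays allow, and it does not cover the spread between animals. Genes of the X and Y chromosomes, 410 in all, were left out, because the array of Gfi1-deficient cells carried the Y-linked Eif2s3y and Kdm5d and little Xist, whereas the other arrays carried Xist and had both Y-linked genes below the floor. Sex, genotype, GFP gate and array therefore differ together between the compared populations and cannot be told apart. The 3' over 5' signal of the Actb control probe sets, a log2 measure of RNA integrity, was 0.28 in Gfi1-deficient and 0.16 in GFP-high cells, and that of Gapdh was -0.10 in Gfi1-deficient and -0.06 in GFP-high cells.

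The genes farthest apart between the populations included many of the monocytic and granulocytic lineages. Of the 7976 measured genes, 759 (9.52%) stood 2-fold or more above and 625 (7.84%) 2-fold or more below their GFP-high level in Gfi1-deficient cells, while 6592 lay within 2-fold. At 4-fold or more the counts were 234 higher and 195 lower, and at 16-fold or more 40 higher and 39 lower. The median difference over all measured genes was -0.02, with quartiles of -0.35 and 0.38, so the list medians below stand beside a centre close to 0. Of 558 genes at least 2-fold apart that had several probe sets above the floor, 545 had probe sets of a single sign. In bulk RNA, fewer cells of a type and less RNA per cell cannot be told apart, which holds for every difference given here. At the 2-fold line, Birc3 at 1.0002 was the last gene counted as higher and Pea15a at 0.9985 the first not counted. On the other side Tssc4 at -1.0007 was the last counted as lower and Tesk2 at -0.9999 the first not counted.

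**Figure D1:**
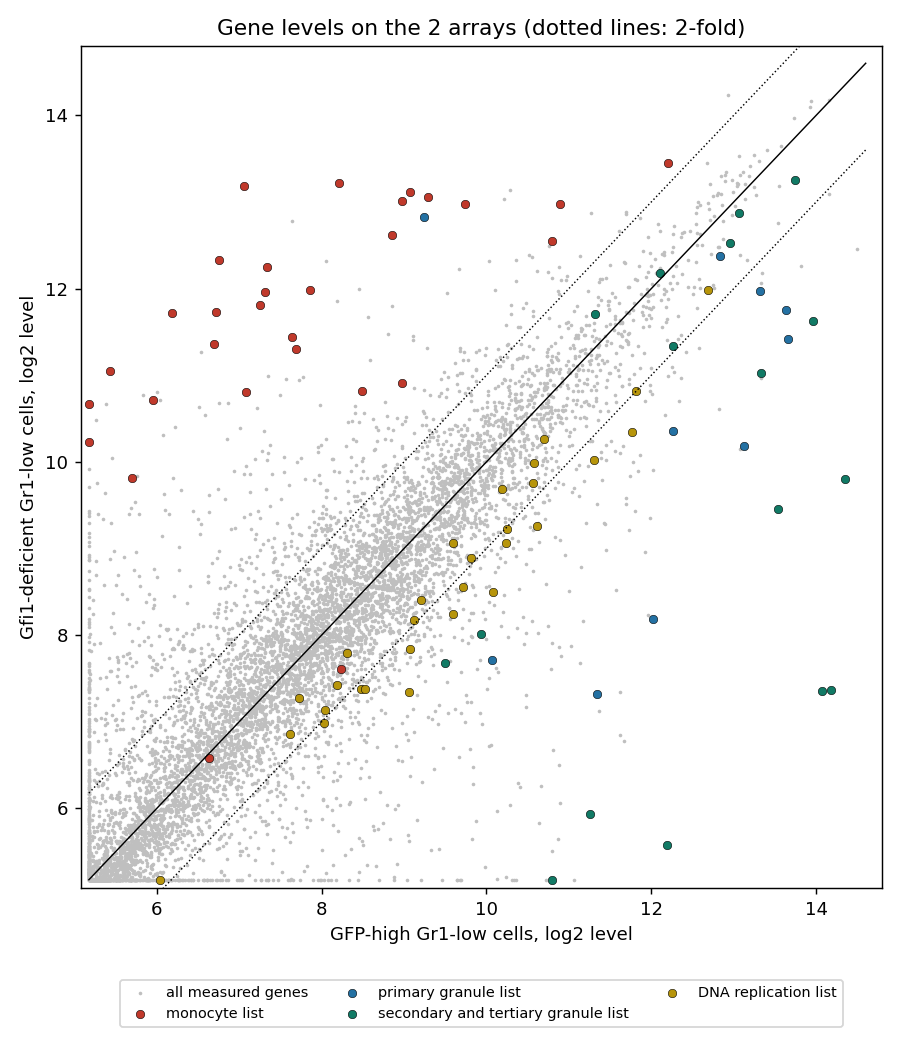
Log2 level of each measured gene on the array of GFP-high Gr1-low cells (horizontal axis) and of Gfi1-deficient Gr1-low cells (vertical axis), with values below the floor of 5.18 drawn on it, the line of equality and dotted lines at 2-fold. Of the 30 monocyte genes 28 lie above the upper dotted line, 8 of 10 primary granule genes and 11 of 17 secondary and tertiary granule genes lie below the lower one, and the DNA replication genes lie around the lower dotted line, 14 of 29 below it.

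The 5 genes used to mark the comparison show both ends of it. S100a4, a small calcium-binding protein of motile cells, read 13.18 in Gfi1-deficient and 7.06 in GFP-high cells, a 69.5-fold difference and the largest on the higher side. Ccr2, the chemokine receptor that lets monocytes leave the bone marrow, read 12.33 in Gfi1-deficient and 6.75 in GFP-high cells (47.5-fold higher). Camp, the cathelicidin precursor stored in secondary granules, read 7.37 in Gfi1-deficient and 14.18 in GFP-high cells and was 112-fold lower in Gfi1-deficient cells, the largest difference on the lower side. Itgb2l, a beta integrin of neutrophils, read 5.58 in Gfi1-deficient and 12.19 in GFP-high cells (98.1-fold lower), and Prom1, a membrane protein of progenitor cells, read 4.24 in Gfi1-deficient and 11.06 in GFP-high cells (at least 58.9-fold lower). The labels call both populations monocytes. The array of Gfi1-deficient cells carried the monocyte genes at high levels, whereas that of GFP-high cells was low in them and high in granule genes, which goes against a plain monocyte name, so the population is called GFP-high Gr1-low cells here. Primary granule genes were also read in Gfi1-deficient cells. Their median there, 10.89, was below 12.55 in GFP-high cells but above 8.70 in GFP-low cells and 8.49 in granulocytes. Both arrays thus carried primary granule genes, and which cells held them was not tested. CD11b itself, encoded by Itgam and used in the sort, read 10.38 in Gfi1-deficient and 11.06 in GFP-high cells, a difference of -0.68 within 2-fold. The genes of the Gr1 antigen were not among the genes compared.

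Among the 10 genes with the largest difference on the higher side, Capn2, a calpain protease subunit, read 11.05 in Gfi1-deficient and 5.43 in GFP-high cells (49.05-fold higher), Dusp3, a protein phosphatase, 10.67 in Gfi1-deficient and 5.39 in GFP-high cells (38.96-fold), and Cd302, a lectin receptor of phagocytes, 10.49 in Gfi1-deficient and 5.27 in GFP-high cells (37.2-fold). The chemokine gene Ccl9 read 12.78 in Gfi1-deficient and 7.64 in GFP-high cells (35.2-fold higher). The matrix proteoglycan gene Vcan read 10.22 in Gfi1-deficient and 4.09 in GFP-high cells (at least 33.04-fold higher), and the fibronectin gene Fn1 13.22 in Gfi1-deficient and 8.21 in GFP-high cells (32.2-fold higher). The remaining members of the 10 were Ms4a4c and Ms4a6d, described with their family. The probe sets of Dusp3 differed widely, from 1.47 to 5.28 on the log2 scale.

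On the lower side, after Camp, stood Ltf, the iron-binding lactoferrin of secondary granules, with 7.36 in Gfi1-deficient and 14.07 in GFP-high cells (105-fold lower). The acute-phase glycoprotein gene Orm1 read 4.12 in Gfi1-deficient and 10.79 in GFP-high cells (at least 48.9-fold lower), the transcription factor gene Klf5 4.73 in Gfi1-deficient and 10.73 in GFP-high cells (at least 46.8-fold lower), and the gelatinase gene Mmp9 5.94 in Gfi1-deficient and 11.25 in GFP-high cells (39.8-fold lower). Actn1, an actin-crosslinking alpha-actinin, read 5.51 in Gfi1-deficient and 10.79 in GFP-high cells (38.8-fold lower), the adhesion receptor gene Adgrg3 5.65 in Gfi1-deficient and 10.87 in GFP-high cells (37.2-fold lower), and Gca, which encodes the calcium-binding grancalcin of neutrophils, 4.77 in Gfi1-deficient and 10.36 in GFP-high cells (at least 36.3-fold lower). Granulocytes also had high levels of these genes: Actn1 read 11.83, Itgb2l 12.56, Mmp9 13.59 and Klf5 10.57 there. The probe sets of Actn1 ranged from -5.28 to -3.43, and the second probe set of Klf5 gave a smaller difference of -1.21.

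**Figure D2:**
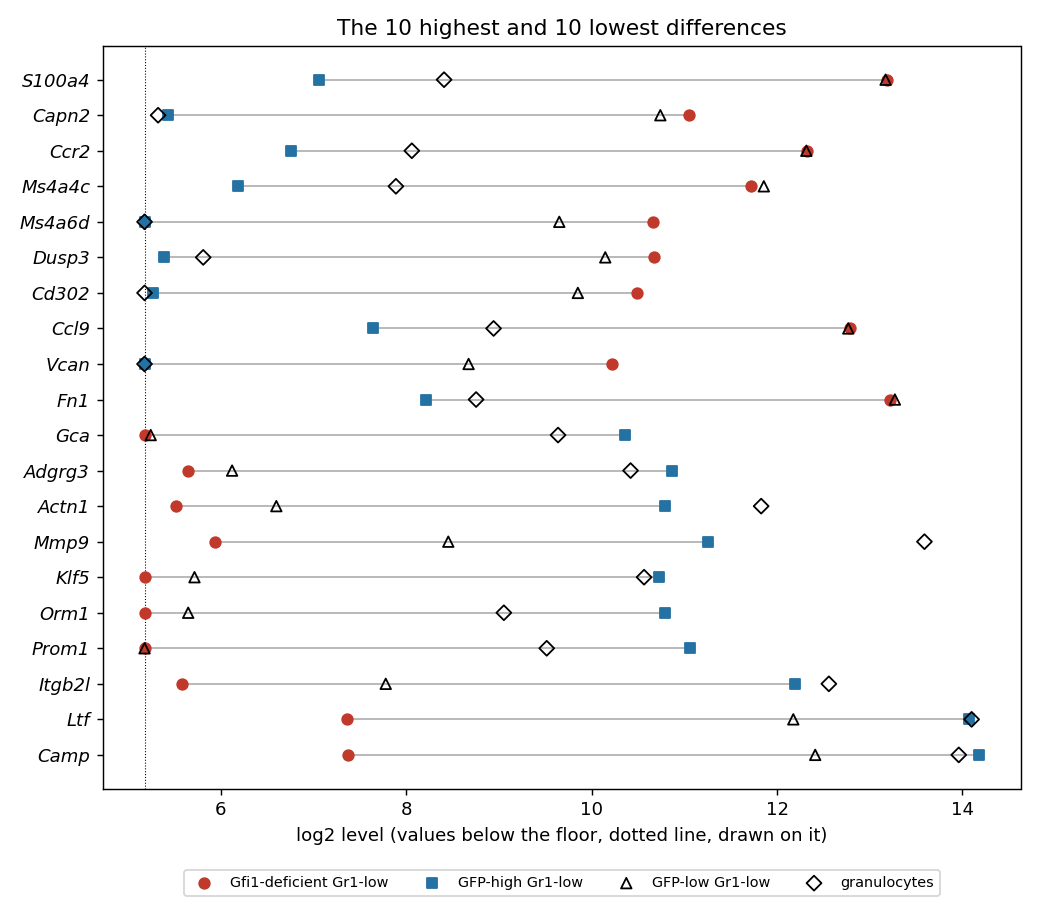
Log2 level of the 10 genes with the highest and the 10 with the lowest difference, Gfi1-deficient (filled circles) against GFP-high Gr1-low cells (filled squares), joined by a line, with GFP-low cells and granulocytes as open symbols and the floor of 5.18 as a dotted line. For S100a4, Ccr2, Ccl9 and Fn1 the circle and the open triangle of GFP-low cells nearly coincide, whereas for Camp and Ltf the circle stands far to the left of all other symbols.

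Upstream sequence is shown for the gene at each extreme, S100a4 and Camp, and for Ltf and Itgb2l, which were lower together with Camp. Each stretch is the 250 bases before the annotated gene start, 5′ to 3′ in the direction of the gene, from RefSeq on build GRCm38.p6: S100a4 at chr3:90603520-90603769 on the forward strand, Camp at chr9:109849457-109849706 on the reverse strand, Ltf at chr9:111019042-111019291 on the forward strand and Itgb2l at chr16:96443615-96443864 on the reverse strand. Capitals mark matches to AAATCAC, a stretch around the AATC core that Gfi1 is known to bind, to TTGCNNAA, a C/EBP motif, or to GAGGAAGT, a PU.1 motif, all searched on both strands. No 2 marked matches overlap.
S100a4: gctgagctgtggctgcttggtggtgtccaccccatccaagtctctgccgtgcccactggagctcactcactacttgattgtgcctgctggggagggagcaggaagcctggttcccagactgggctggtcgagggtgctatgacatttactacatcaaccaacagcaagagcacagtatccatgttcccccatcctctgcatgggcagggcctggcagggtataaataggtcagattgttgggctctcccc
Camp: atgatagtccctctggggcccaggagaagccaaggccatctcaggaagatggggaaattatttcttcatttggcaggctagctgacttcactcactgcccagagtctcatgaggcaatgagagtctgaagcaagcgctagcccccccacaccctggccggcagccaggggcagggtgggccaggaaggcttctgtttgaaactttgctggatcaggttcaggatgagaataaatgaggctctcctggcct
Ltf: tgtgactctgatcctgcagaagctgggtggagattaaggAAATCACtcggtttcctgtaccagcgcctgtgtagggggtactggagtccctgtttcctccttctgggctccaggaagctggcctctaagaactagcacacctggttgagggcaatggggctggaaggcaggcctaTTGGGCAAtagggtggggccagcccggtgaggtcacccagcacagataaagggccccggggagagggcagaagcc
Itgb2l: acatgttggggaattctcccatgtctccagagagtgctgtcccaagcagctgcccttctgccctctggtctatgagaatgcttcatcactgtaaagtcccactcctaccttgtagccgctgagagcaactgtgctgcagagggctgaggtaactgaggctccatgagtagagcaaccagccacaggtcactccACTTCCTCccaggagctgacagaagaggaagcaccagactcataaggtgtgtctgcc
The Ltf stretch held 1 match to the Gfi1 letters, starting 211 bases before the gene start, and 1 C/EBP match at 75 bases before it. The Itgb2l stretch held 1 PU.1 match at 57 bases before the start, and those of S100a4 and Camp held none of the motifs. Over the first listed start of all 27025 genes in the table, 2.71% of such stretches held AAATCAC, 9.55% TTGCNNAA and 2.44% GAGGAAGT. Of the 10 genes lowest in Gfi1-deficient cells 7 had an entry, and 1 of these held AAATCAC, 2 TTGCNNAA and 1 GAGGAAGT. Of the 10 highest, 8 had an entry, with 0, 1 and 0 matches to the same motifs. A match is only a run of letters and shows no binding.

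Gfi1 itself read 5.18 in Gfi1-deficient and 10.31 in GFP-high cells, at least 35.1-fold lower, with 3.74 in GFP-low cells and 7.31 in granulocytes. The Gfi1-deficient level lay just under the floor. The sources used here do not give the probe set's place relative to the GFP insertion, so the value does not check the knock-out label. Its order on the heterozygous arrays follows the GFP gate. The corepressor genes lay within 2-fold: of 11 measured genes of the list of Gfi1, Gfi1b and corepressors, Gfi1 was the single gene 2-fold apart. Among all genes 7.84% were lower and 6592 of 7976 within 2-fold, so these counts are near those of all genes. Kdm1a, the histone demethylase that Gfi1 recruits, read 8.41 in Gfi1-deficient and 8.25 in GFP-high cells, its scaffold partner Rcor1 9.01 in Gfi1-deficient and 9.98 in GFP-high cells, and the histone deacetylase gene Hdac1 9.57 in Gfi1-deficient and 10.23 in GFP-high cells. Gfi1b, the paralog used in red cell and platelet formation, read 5.73 in Gfi1-deficient and 5.48 in GFP-high cells.

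Of 17 measured published targets of Gfi1, 5 were higher and 2 lower in Gfi1-deficient cells, against 9.52% and 7.84% of all genes, so the count on the lower side is near that of all genes. Their median was 0.25 against -0.02 for all genes, and -0.03 with the floor at the 60th percentile. Csf1r, the receptor for colony-stimulating factor 1, read 12.62 in Gfi1-deficient and 8.86 in GFP-high cells (13.5-fold higher), and Irf8, a factor required for monocytes, 10.80 in Gfi1-deficient and 7.09 in GFP-high cells (13.1-fold higher). The cytokine feedback inhibitor gene Socs3 read 8.68 in Gfi1-deficient and 5.79 in GFP-high cells (7.44-fold higher) and the cell cycle inhibitor gene Cdkn1a 9.40 in Gfi1-deficient and 7.14 in GFP-high cells (4.80-fold higher). In the other direction, Ets1 read 4.32 in Gfi1-deficient and 10.34 in GFP-high cells (at least 35.7-fold lower), and the immediate early factor gene Egr1 7.71 in Gfi1-deficient and 9.93 in GFP-high cells (4.63-fold lower). The 4 probe sets of Ets1 ranged from -5.16 to -0.48, all negative. Id2, an inhibitor of helix-loop-helix factors, differed by -0.03, and Csf1, the ligand of Csf1r, by -0.19.

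Monocyte genes were higher in Gfi1-deficient cells for nearly every member. Of 30 measured, 28 (against 9.52% of all genes) were higher in Gfi1-deficient cells, 25 of them at least 4-fold, and 0 were lower, with a median difference of 4.07. This and the other gene lists were chosen with earlier results of these data known. The monocyte list also holds several of the 10 genes with the largest difference, among them S100a4, Capn2 and Ccr2. Its count therefore describes the chosen members and is no independent support. The median level of the list was 11.77 in Gfi1-deficient and 7.49 in GFP-high cells, beside 11.90 in GFP-low cells and 8.10 in granulocytes. Klf4, a factor that drives monocyte differentiation, read 11.36 in Gfi1-deficient and 6.70 in GFP-high cells (25.4-fold higher). F13a1, the coagulation factor subunit made by monocytes, read 13.11 in Gfi1-deficient and 9.08 in GFP-high cells (16.4-fold higher), and Cx3cr1, the fractalkine receptor, 9.82 in Gfi1-deficient and 5.71 in GFP-high cells (17.3-fold higher). Ly86, which encodes the MD-1 protein of an innate receptor complex, read 11.81 in Gfi1-deficient and 7.25 in GFP-high cells (23.7-fold higher), and the receptor phosphatase gene Ptpro 10.72 in Gfi1-deficient and 5.95 in GFP-high cells (27.3-fold higher). The 2 members within 2-fold were Ace, the angiotensin-converting enzyme gene, at -0.04 and Spn, which encodes CD43, at -0.63. Both are used as markers of the non-classical, patrolling monocyte. Lgals3, the galectin-3 gene, was high on both arrays, with 13.45 in Gfi1-deficient and 12.20 in GFP-high cells, and passed 2-fold at 1.25. Ahnak and its 3 probe sets disagreed in size, from 0.47 to 4.65.

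Cd48, the SLAM family ligand named in the title of the study as a marker of the bipotential precursor, read 10.98 in Gfi1-deficient and 7.78 in GFP-high cells (9.19-fold higher in Gfi1-deficient cells), with 11.22 in GFP-low cells and 7.10 in granulocytes. Of its family, 4 of 6 measured genes were higher and 0 lower, against 9.52% and 7.84% of all genes. Cd244a, which encodes the CD48 receptor 2B4, read 7.75 in Gfi1-deficient and 5.92 in GFP-high cells (3.58-fold), the SLAM receptor gene Ly9 7.28 in Gfi1-deficient and 5.28 in GFP-high cells (4.01-fold) and Cd84 9.67 in Gfi1-deficient and 8.32 in GFP-high cells (2.54-fold). Slamf9 at 0.64 and Slamf8 at 0.54 stayed within 2-fold.

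The Ms4a cluster, which encodes tetraspan membrane proteins from neighbouring genes of chromosome 19, split by member. Of 8 measured genes 6 were higher by 4-fold or more in Gfi1-deficient cells, against 234 of all 7976 measured genes. Ms4a4c read 11.72 in Gfi1-deficient and 6.18 in GFP-high cells (46.6-fold), Ms4a6d 10.66 in Gfi1-deficient and 4.82 in GFP-high cells (at least 44.8-fold), Ms4a6b 11.72 in Gfi1-deficient and 6.72 in GFP-high cells (32.1-fold) and Ms4a6c 12.25 in Gfi1-deficient and 7.33 in GFP-high cells (30.2-fold). Ms4a8a and Ms4a4b, below the floor in GFP-high cells, read 9.92 and 9.13 in Gfi1-deficient cells. Ms4a3, the member expressed in granulocyte-monocyte progenitors, read 8.19 in Gfi1-deficient and 12.02 in GFP-high cells and was 14.3-fold lower. Ms4a7, a macrophage gene, lay within 2-fold at 0.48.

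The S100 family was divided in the same manner. Beside S100a4, the annexin partner S100a10 read 11.98 in Gfi1-deficient and 7.85 in GFP-high cells (17.4-fold higher) and S100a6 12.49 in Gfi1-deficient and 10.75 in GFP-high cells (3.34-fold higher). The calprotectin subunits of neutrophils and classical monocytes were lower: S100a9 read 12.46 in Gfi1-deficient and 14.50 in GFP-high cells (4.12-fold) and S100a8 13.09 in Gfi1-deficient and 14.15 in GFP-high cells (2.09-fold). The values of S100a8 and S100a9 are among the highest measured. The other 5 measured members were within 2-fold.

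Primary granule genes were lower in Gfi1-deficient than in GFP-high cells for 8 of 10 members, against 7.84% of all genes, with a median of -2.08. Mpo, which encodes myeloperoxidase, read 11.42 in Gfi1-deficient and 13.66 in GFP-high cells (4.75-fold lower), with 8.08 in GFP-low cells and 9.36 in granulocytes. The neutrophil elastase gene Elane read 11.75 in Gfi1-deficient and 13.64 in GFP-high cells (3.69-fold lower), the cathepsin G gene Ctsg 10.36 in Gfi1-deficient and 12.27 in GFP-high cells (3.76-fold lower) and the proteinase 3 gene Prtn3 11.97 in Gfi1-deficient and 13.32 in GFP-high cells (2.54-fold lower). In GFP-low cells these read 9.31, 7.89 and 9.69, so the Gfi1-deficient level of each protease lay between those of both heterozygous Gr1-low populations. Nkg7, a granule membrane protein of cytotoxic cells, read 7.32 in Gfi1-deficient and 11.35 in GFP-high cells (16.3-fold lower). The cystatin gene Cst7 read 7.71 in Gfi1-deficient and 10.07 in GFP-high cells (5.15-fold lower) and Serpinb1a, an inhibitor of the neutrophil serine proteases, 10.18 in Gfi1-deficient and 13.13 in GFP-high cells (7.71-fold lower). Ms4a3, given above, is also of this list. The single member on the higher side was Ctsc, the lysosomal protease that activates the granule proteases, with 12.82 in Gfi1-deficient and 9.24 in GFP-high cells (11.97-fold). Srgn, the proteoglycan core of granules, lay within 2-fold at -0.46.

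Secondary and tertiary granule genes had 0 of 17 measured members higher and 11 lower, against 7.84% of all genes, 9 of them at least 4-fold, with a median of -2.31. The list holds several of the 10 genes with the lowest difference, among them Camp, Ltf and Itgb2l. Its count therefore describes the chosen members and is no independent support. Camp and Ltf were lower in Gfi1-deficient cells than on every other array: Camp read 7.37 there, 14.18 in GFP-high cells, 12.41 in GFP-low cells and 13.96 in granulocytes, and Ltf read 7.36, 14.07, 12.18 and 14.10 on the same arrays. Ngp, the neutrophilic granule protein gene, read 9.80 in Gfi1-deficient and 14.35 in GFP-high cells (23.5-fold lower) and 13.32 in GFP-low cells. The peptidoglycan recognition protein gene Pglyrp1 read 9.45 in Gfi1-deficient and 13.54 in GFP-high cells (16.99-fold lower), the lipocalin gene Lcn2, a binder of bacterial siderophores, 11.63 in Gfi1-deficient and 13.97 in GFP-high cells (5.06-fold lower), and Cd177, a neutrophil surface antigen, 11.02 in Gfi1-deficient and 13.33 in GFP-high cells (4.94-fold lower). Padi4, the enzyme that citrullinates histones, read 8.02 in Gfi1-deficient and 9.93 in GFP-high cells (3.77-fold lower). The granule genes were not all low. The neutrophil collagenase gene Mmp8 read 11.71 in Gfi1-deficient and 11.32 in GFP-high cells (0.39), the chitinase-like gene Chil3 13.25 in Gfi1-deficient and 13.74 in GFP-high cells (-0.49), the haptoglobin gene Hp 12.87 in Gfi1-deficient and 13.06 in GFP-high cells (-0.19) and Mgst1 12.18 in Gfi1-deficient and 12.11 in GFP-high cells (0.07), all within 2-fold.

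Of the genes of the last steps of neutrophil maturation, 9 of 19 were lower and 4 higher in Gfi1-deficient cells, against 7.84% and 9.52% of all genes (median -0.66). Cxcr2, the receptor for neutrophil chemokines, read 6.04 in Gfi1-deficient and 8.79 in GFP-high cells (6.76-fold lower), and the decoy receptor gene Il1r2 6.69 in Gfi1-deficient and 9.47 in GFP-high cells (6.87-fold lower). Both were higher in granulocytes, at 12.40 and 11.45. On the higher side the chemokine gene Ccl6 read 11.95 in Gfi1-deficient and 9.53 in GFP-high cells (5.35-fold), the lectin gene Clec4d 8.57 in Gfi1-deficient and 6.41 in GFP-high cells (4.47-fold) and the cyclooxygenase gene Ptgs2 7.22 in Gfi1-deficient and 5.09 in GFP-high cells (at least 4.12-fold). Csf3r, the receptor for granulocyte colony-stimulating factor, read 10.19 in Gfi1-deficient and 10.19 in GFP-high cells, a difference that rounds to 0.00. Of the oxidase that makes superoxide in phagocytes, the subunit gene Ncf1 read 10.38 in Gfi1-deficient and 12.27 in GFP-high cells (3.72-fold lower) and the GTPase gene Rac2 11.27 in Gfi1-deficient and 12.42 in GFP-high cells (2.22-fold lower), while Ncf4 at -0.90, Cyba at -0.43 and Rac1 at 0.43 lay within 2-fold.

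**Figure D3:**
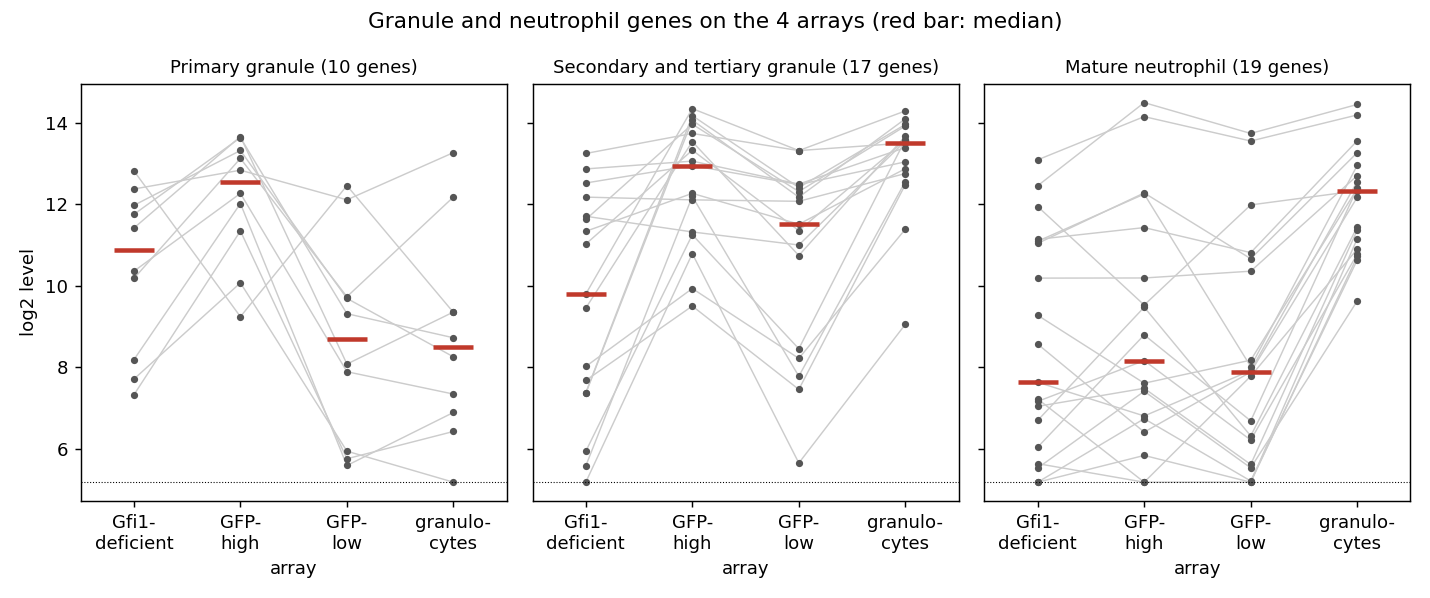
Log2 level of each measured gene of the primary granule, secondary and tertiary granule and mature neutrophil lists on the 4 arrays, with grey lines joining the values of a gene, red bars for list medians and the floor of 5.18 dotted. The primary granule median was 10.89 in Gfi1-deficient, 12.55 in GFP-high and 8.70 in GFP-low cells, that of secondary and tertiary granule genes 9.80, 12.95 and 11.51, and only granulocytes reached a mature neutrophil median of 12.33.

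Transcription factors of the myeloid lineages differed by family. Of 5 measured C/EBP genes, Cebpa, which commits progenitors to the myeloid lineage, read 10.27 in Gfi1-deficient and 8.77 in GFP-high cells (2.83-fold higher), Cebpb 12.10 in Gfi1-deficient and 10.90 in GFP-high cells (2.30-fold higher) and Cebpg 9.33 in Gfi1-deficient and 8.29 in GFP-high cells (2.05-fold higher). Cebpd lay at -0.63 and Ddit3 at 0.05. Among 8 interferon regulatory factors, Irf5, a factor of inflammatory gene activation, read 10.71 in Gfi1-deficient and 6.03 in GFP-high cells (25.6-fold higher), but its other probe set gave 0.26. Irf2 was 2.42-fold higher, and Irf1 at -0.18, Irf3 at 0.27, Irf7 at 0.97 and Irf9 at 0.88 were within 2-fold, as was Irf4 at 0.81. Spi1, which encodes PU.1, the factor that both lineages need, read 10.85 in Gfi1-deficient and 10.99 in GFP-high cells (-0.14).

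Krüppel-like factors stood on both sides: Klf4 and Klf9 (6.60-fold), Klf3 (2.26-fold) and Klf13 (2.15-fold) were higher in Gfi1-deficient cells, and Klf5 and Klf7 (2.70-fold) lower. Among 13 ETS genes, Elk3 read 8.58 in Gfi1-deficient and 5.36 in GFP-high cells (9.30-fold higher) and Ets2 7.03 in Gfi1-deficient and 9.34 in GFP-high cells (4.97-fold lower). Granulocytes had both at high levels, Ets2 and Ets1 reading 11.10 and 10.10. Etv3 was 2.15-fold higher by its main probe set, with others down to -0.38. Of the Egr, Nab and Id genes, 0 of 7 were higher and Egr1 alone was lower, against 9.52% and 7.84% of all genes. Both counts are near those of all genes. Egr2, known with Nab2 as an antagonist of Gfi1 in monocyte fate, was not measured, and Nab2 read 5.52 in Gfi1-deficient and 5.08 in GFP-high cells. AP-1 and ATF genes had 7 of 16 higher, against 9.52% of all genes. Among them were the stress factor gene Atf3 with 10.81 in Gfi1-deficient and 6.0027 in GFP-high cells (27.9-fold) and Junb with 10.56 in Gfi1-deficient and 8.41 in GFP-high cells (4.44-fold). The repressor gene Jdp2 read 7.95 in Gfi1-deficient and 9.99 in GFP-high cells (4.12-fold lower). Of 13 NF-kappaB genes 11 lay within 2-fold, near the share of all genes (6592 of 7976). The kinase gene Ikbkb was 2.73-fold and the cofactor gene Bcl3 2.74-fold higher.

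Of 18 measured progenitor genes 15 were within 2-fold, near the share of all genes (6592 of 7976). Many of these 15 read close to the floor. The other 3 of the 18 were all lower in Gfi1-deficient cells, against 7.84% of all genes. Besides Prom1, Myb, a factor of dividing progenitors, read 7.86 in Gfi1-deficient and 10.88 in GFP-high cells (8.11-fold lower) and Kit, the stem cell factor receptor gene, 4.42 in Gfi1-deficient and 8.11 in GFP-high cells (at least 7.66-fold lower). In granulocytes Prom1 read 9.52, Myb 9.19 and Kit 6.51. Cd34 read 5.31 in Gfi1-deficient and 4.0044 in GFP-high cells and Flt3 7.81 in Gfi1-deficient and 7.50 in GFP-high cells.

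Many cell cycle genes were lower in Gfi1-deficient cells, although most did not pass 2-fold. All 29 measured DNA replication genes had a negative difference, from -1.72 to -0.43, and 14 passed 2-fold against 7.84% of all genes (median -0.95). Cdc6, which loads the replicative helicase, read 7.34 in Gfi1-deficient and 9.06 in GFP-high cells (3.29-fold lower), Uhrf1, which maintains DNA methylation, 8.50 in Gfi1-deficient and 10.08 in GFP-high cells (3.01-fold lower), the ribonucleotide reductase gene Rrm2 10.34 in Gfi1-deficient and 11.77 in GFP-high cells (2.68-fold lower) and the DNA ligase gene Lig1 9.26 in Gfi1-deficient and 10.61 in GFP-high cells (2.55-fold lower). Of 30 mitosis genes 29 were negative and 10 at least 2-fold lower, against 7.84% of all genes (median -0.79). They were led by the kinetochore genes Cenpf with 7.83 in Gfi1-deficient and 9.44 in GFP-high cells (3.05-fold) and Nuf2 with 8.85 in Gfi1-deficient and 10.23 in GFP-high cells (2.60-fold). The proliferation marker Mki67 read 10.99 in Gfi1-deficient and 12.20 in GFP-high cells (2.32-fold lower). The median level of the replication list was 8.50 in Gfi1-deficient and 9.59 in GFP-high cells, with 7.86 in GFP-low cells and 6.45 in granulocytes. Of 20 regulators 4 were lower, against 7.84% of all genes: the cyclin gene Ccne2 read 6.72 in Gfi1-deficient and 8.90 in GFP-high cells (4.54-fold lower), Cdk2 8.26 in Gfi1-deficient and 9.83 in GFP-high cells (2.98-fold lower), Ccnd2 5.55 in Gfi1-deficient and 7.08 in GFP-high cells (2.89-fold lower) and E2f8 9.34 in Gfi1-deficient and 10.70 in GFP-high cells (2.57-fold lower). Cdkn1a, higher as given above, was the single regulator on that side.

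**Figure D4:**
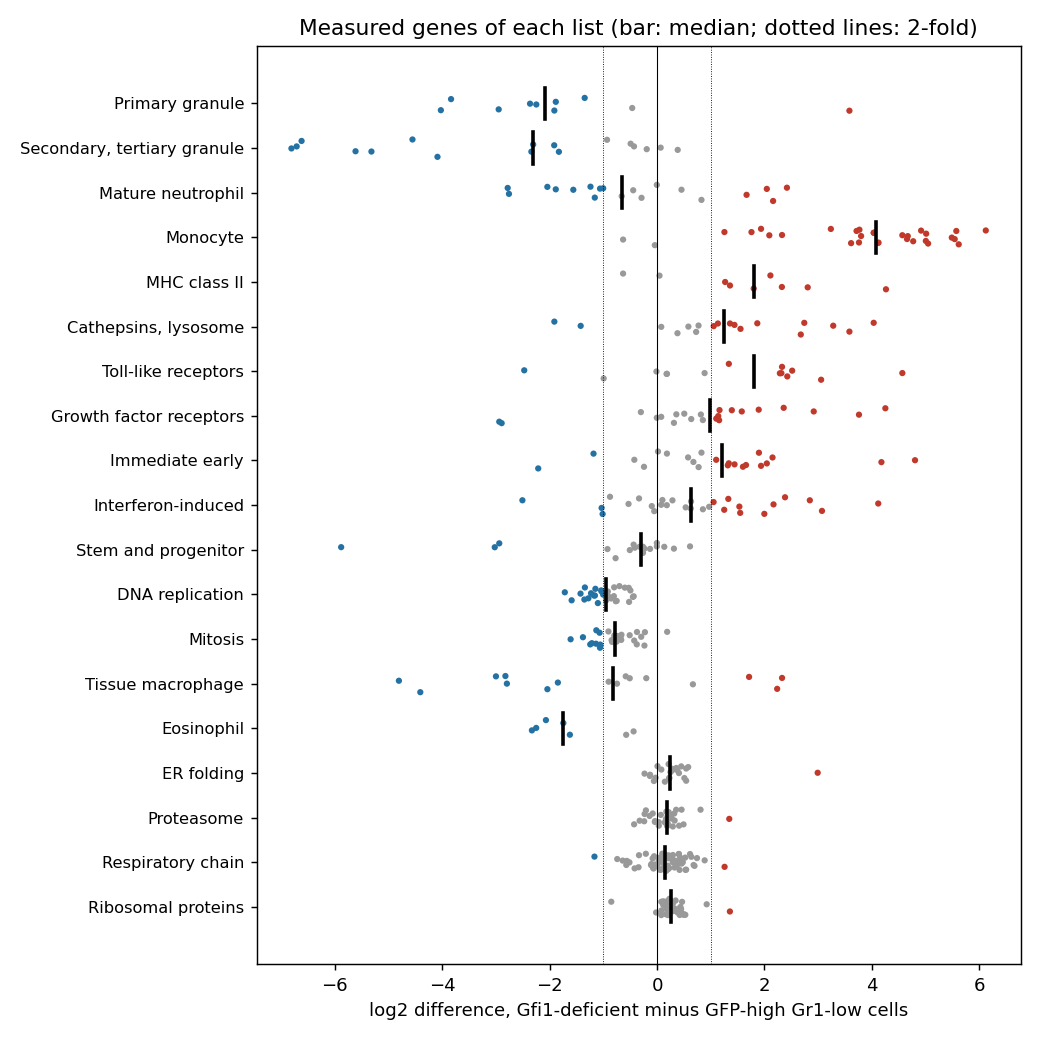
Log2 difference, Gfi1-deficient minus GFP-high Gr1-low cells, of every measured gene of 19 lists (red at least 2-fold higher, blue at least 2-fold lower, grey between, black bars for medians). The monocyte median stands at 4.07 and that of secondary and tertiary granule genes at -2.31, while proteasome, respiratory chain and ribosomal protein genes crowd around medians of 0.19, 0.15 and 0.27.

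Receptors for growth factors and cytokines were higher in Gfi1-deficient cells for 11 of 22 genes, against 9.52% of all genes, and lower for 2, near the 7.84% of all genes on the lower side. After Csf1r, the shared signalling subunit gene Il6st read 9.43 in Gfi1-deficient and 4.47 in GFP-high cells (at least 19.04-fold higher), its partner Il6ra 9.68 in Gfi1-deficient and 7.33 in GFP-high cells (5.13-fold higher) and the interleukin-10 receptor gene Il10ra 8.09 in Gfi1-deficient and 4.12 in GFP-high cells (at least 7.55-fold higher). The probe sets of Il6st ranged from 1.24 to 4.25. Next to Kit, Igf1r, the receptor for insulin-like growth factor 1, was lower with 5.9980 in Gfi1-deficient and 8.89 in GFP-high cells (7.42-fold). The GM-CSF receptor genes Csf2ra at 0.51 and Csf2rb at 0.08 were within 2-fold. In the Bcl2 family 3 of 14 were higher, against 9.52% of all genes: the pro-apoptotic genes Pmaip1, with 8.53 in Gfi1-deficient and 4.71 in GFP-high cells (at least 10.2-fold), and Bcl2l11 (2.77-fold), and the survival gene Mcl1 (2.18-fold).

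Chemoattractant receptors were evenly divided, 5 of 14 higher and 5 lower, both above the 9.52% and 7.84% of all genes. With Ccr2 and Cx3cr1, the receptor gene Gpr35 was higher with 9.08 in Gfi1-deficient and 4.49 in GFP-high cells (at least 14.9-fold), and Ccr1 was 2.36-fold higher. With Cxcr2, the lipid receptor gene S1pr4 read 8.46 in Gfi1-deficient and 10.21 in GFP-high cells (3.36-fold lower), the complement receptor gene C5ar1 6.36 in Gfi1-deficient and 8.01 in GFP-high cells (3.14-fold lower), the leukotriene B4 receptor gene Ltb4r1 10.13 in Gfi1-deficient and 11.56 in GFP-high cells (2.70-fold lower) and the formyl peptide receptor gene Fpr2 11.04 in Gfi1-deficient and 12.28 in GFP-high cells (2.36-fold lower). Cxcr4, which holds leukocytes in the bone marrow, read 10.85 in Gfi1-deficient and 10.72 in GFP-high cells (0.12). Of 14 measured chemokines 6 were higher and 0 lower, against 9.52% and 7.84% of all genes. Beyond Ccl9 and Ccl6, the macrophage inflammatory protein gene Ccl3 read 10.40 in Gfi1-deficient and 6.22 in GFP-high cells (18.1-fold) and Ccl2, the ligand of Ccr2, 8.69 in Gfi1-deficient and 5.26 in GFP-high cells (10.8-fold).

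Pattern recognition genes leaned to the Gfi1-deficient side. Of 14 measured Toll-like receptor and accessory genes 8 were higher and 1 lower, against 9.52% and 7.84% of all genes. The median was 1.81, but 0.91 with the floor at the 60th percentile. Tlr2, the lipoprotein receptor gene, read 10.36 in Gfi1-deficient and 7.30 in GFP-high cells (8.31-fold higher), its partners Tlr6 7.74 in Gfi1-deficient and 5.42 in GFP-high cells (4.98-fold) and Tlr1 7.46 in Gfi1-deficient and 4.84 in GFP-high cells (at least 4.88-fold), and the co-receptor gene Cd14 10.82 in Gfi1-deficient and 8.49 in GFP-high cells (5.02-fold). Tlr4, the receptor for lipopolysaccharide, read 7.67 in Gfi1-deficient and 7.48 in GFP-high cells (0.18), while Ly96, its required partner, read 7.60 in Gfi1-deficient and 4.86 in GFP-high cells (at least 5.37-fold higher). The lipopolysaccharide-binding protein gene Lbp was the exception with 8.98 in Gfi1-deficient and 11.45 in GFP-high cells (5.55-fold lower). C-type lectin receptors had 8 of 15 higher and 4 lower, against 9.52% and 7.84% of all genes, with a median of 1.4958 that was 0.18 under the higher floor. The beta-glucan receptor gene Clec7a read 11.99 in Gfi1-deficient and 8.45 in GFP-high cells (11.7-fold higher) and Clec4e 10.66 in Gfi1-deficient and 7.99 in GFP-high cells (6.38-fold higher), against Clec5a with 8.21 in Gfi1-deficient and 10.44 in GFP-high cells (4.70-fold lower) and Mgl2 with 5.35 in Gfi1-deficient and 8.55 in GFP-high cells (9.18-fold lower). Fcgr1, the high-affinity IgG receptor gene, read 9.64 in Gfi1-deficient and 5.37 in GFP-high cells (19.3-fold higher) and Fcgrt, the recycling receptor gene, 8.26 in Gfi1-deficient and 6.74 in GFP-high cells (2.86-fold higher), while Fcgr2b at 0.68, Fcgr3 at 0.37, Fcgr4 at -0.11 and Fcer1g at 0.22 were within 2-fold.

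Among 20 integrin and adhesion genes 6 were higher and 3 lower, against 9.52% and 7.84% of all genes. Itgb7 read 10.99 in Gfi1-deficient and 7.35 in GFP-high cells (12.5-fold higher), its partner Itga4 7.02 in Gfi1-deficient and 5.58 in GFP-high cells (2.72-fold higher) and the ligand gene Icam1 7.50 in Gfi1-deficient and 5.31 in GFP-high cells (4.58-fold higher). Next to Itgb2l, the laminin receptor subunit gene Itga6 read 7.14 in Gfi1-deficient and 9.11 in GFP-high cells (3.90-fold lower). Itgb2, the common chain that pairs with CD11b, read 12.02 in Gfi1-deficient and 12.52 in GFP-high cells (-0.51).

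Most MHC class II and lysosomal genes, and 4 of 15 class I genes, were higher in Gfi1-deficient cells. Of 9 MHC class II genes 7 were higher, against 9.52% of all genes, and 0 lower (median 1.80). Ifi30, a thiol reductase of antigen processing, read 12.32 in Gfi1-deficient and 8.05 in GFP-high cells (19.2-fold), H2-DMa 9.86 in Gfi1-deficient and 7.06 in GFP-high cells (6.99-fold), H2-Aa 9.22 in Gfi1-deficient and 6.90 in GFP-high cells (5.01-fold) and the invariant chain gene Cd74 9.49 in Gfi1-deficient and 7.38 in GFP-high cells (4.32-fold). In GFP-low cells H2-Aa read 11.20 and Cd74 11.30, above both. The class II activator gene Ciita was not measured. Of 15 class I genes 11 were within 2-fold, against 6592 of all 7976 genes, with a median of 0.20. The 4 higher ones, against 9.52% of all genes, were led by H2-M3 (4.15-fold). Among them were the immunoproteasome genes Psmb10 (3.33-fold) and Psmb8 (2.01-fold). Cathepsin and lysosome genes had 11 of 18 higher and 2 lower, against 9.52% and 7.84% of all genes (median 1.25). The count on the lower side is thus near the share of all genes. Ctss, a protease of class II processing, read 13.01 in Gfi1-deficient and 8.98 in GFP-high cells (16.4-fold), Ctsl 10.77 in Gfi1-deficient and 7.49 in GFP-high cells (9.71-fold) and the legumain gene Lgmn 9.28 in Gfi1-deficient and 6.54 in GFP-high cells (6.69-fold). Ctsg and Ctse were the lower members, and the probe sets of Ctse had opposite signs (-1.42 and 0.63).

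Of 28 interferon-induced genes 11 were higher and 3 lower in Gfi1-deficient cells, against 9.52% and 7.84% of all genes (median 0.63). The count on the lower side is near that of all genes. Ifi209 read 10.63 in Gfi1-deficient and 6.51 in GFP-high cells (17.4-fold higher), the guanylate-binding protein gene Gbp3 8.58 in Gfi1-deficient and 5.51 in GFP-high cells (8.40-fold higher) and Ifi27l2a 10.03 in Gfi1-deficient and 7.19 in GFP-high cells (7.18-fold higher). Ifit2, an antiviral tetratricopeptide gene, read 5.28 in Gfi1-deficient and 7.79 in GFP-high cells (5.68-fold lower), Cmpk2 7.84 in Gfi1-deficient and 8.88 in GFP-high cells (2.04-fold lower) and the antiviral enzyme gene Rsad2 6.49 in Gfi1-deficient and 7.50 in GFP-high cells (2.02-fold lower). Some antiviral genes were near the floor in both populations: Ifit3 read 5.86 in Gfi1-deficient and 5.91 in GFP-high cells, with 9.28 in GFP-low cells and 8.90 in granulocytes, and Oasl2 read 4.91 in Gfi1-deficient and 5.51 in GFP-high cells, with 9.45 in GFP-low cells and 9.66 in granulocytes. Usp18, the brake on interferon signalling, read 6.08 in Gfi1-deficient and 5.23 in GFP-high cells, with 9.01 in GFP-low cells. The median level of the list was 7.40 in Gfi1-deficient and 6.44 in GFP-high cells, with 8.95 in GFP-low cells and 8.43 in granulocytes.

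Immediate early and inflammatory genes were higher for 12 of 22 and lower for 2, against 9.52% and 7.84% of all genes (median 1.21). After Atf3, Ccl3, Junb and Ptgs2, the orphan receptor gene Nr4a1 read 10.91 in Gfi1-deficient and 8.98 in GFP-high cells (3.83-fold higher), and the stress response gene Ier3 10.19 in Gfi1-deficient and 8.29 in GFP-high cells (3.72-fold higher). Egr1 and the cytokine gene Tnf, with 6.20 in Gfi1-deficient and 7.38 in GFP-high cells (2.27-fold), were lower. In the interleukin-1 family the inflammasome sensor gene Nlrp3 read 9.34 in Gfi1-deficient and 6.50 in GFP-high cells (7.14-fold higher), with its adaptor gene Pycard (2.52-fold) and Casp1 (2.18-fold) also higher. The interleukin-18 receptor genes Il18rap, with 5.76 in Gfi1-deficient and 8.69 in GFP-high cells (7.62-fold), and Il18r1, with 4.45 in Gfi1-deficient and 7.33 in GFP-high cells (at least 4.45-fold), and the inhibitor gene Il18bp (3.44-fold) were lower. Il1b read 7.63 in Gfi1-deficient and 6.80 in GFP-high cells (0.83). For lipid mediators, Lta4h, which makes leukotriene B4, read 10.15 in Gfi1-deficient and 13.07 in GFP-high cells (7.58-fold lower), and Pla2g7, which degrades platelet-activating factor, 10.26 in Gfi1-deficient and 6.85 in GFP-high cells (10.6-fold higher). The lipoxygenase activator gene Alox5ap was high on both arrays, with 12.92 in Gfi1-deficient and 12.70 in GFP-high cells.

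Acute-phase and secreted genes had 6 of 15 lower and 2 higher in Gfi1-deficient cells, against 7.84% and 9.52% of all genes, so the count on the higher side is near that of all genes. The higher ones were the coagulation factor gene F10, with 11.18 in Gfi1-deficient and 8.58 in GFP-high cells (6.05-fold), and Saa3, which encodes a serum amyloid A protein, with 8.42 in Gfi1-deficient and 5.97 in GFP-high cells (5.48-fold). Saa3 read 5.64 in GFP-low cells and 5.91 in granulocytes, so its Gfi1-deficient level was the highest of the 4 arrays. The glycoprotein gene Lrg1 read 11.09 in Gfi1-deficient and 12.25 in GFP-high cells (2.23-fold lower), with 8.01 in GFP-low cells. Vegfa was 2.74-fold lower.

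Genes of the basic cellular machinery lay mostly within 2-fold, as did most of all measured genes (6592 of 7976). Of 42 ribosomal protein genes 41 were within 2-fold. Their median was 0.27, beside -0.02 for all genes, and 40 had a positive difference. Within 2-fold were also 73 of 75 respiratory chain genes, 32 of 33 proteasome genes and 22 of 23 genes of folding in the endoplasmic reticulum. The exception among the last was the disulfide isomerase gene Txndc5, with 9.43 in Gfi1-deficient and 6.44 in GFP-high cells (7.95-fold higher). Of 17 glycolysis genes, Slc2a3, a high-affinity glucose transporter, read 7.35 in Gfi1-deficient and 11.62 in GFP-high cells (19.3-fold lower) and the regulatory enzyme gene Pfkfb3 6.71 in Gfi1-deficient and 8.67 in GFP-high cells (3.89-fold lower), against the transporter gene Slc2a1 with 8.81 in Gfi1-deficient and 6.9975 in GFP-high cells (3.52-fold higher). Slc2a3 read 13.07 in granulocytes, and its probe sets ranged from -4.27 to -0.63. Alas1, the first enzyme of heme synthesis, which supplies myeloperoxidase, read 8.79 in Gfi1-deficient and 11.15 in GFP-high cells (5.14-fold lower), and Hmox1, which breaks heme down, 9.36 in Gfi1-deficient and 7.64 in GFP-high cells (3.28-fold higher).

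Genes of other cell types that a CD11b+ Gr1-low gate can hold were read as well. Tissue macrophage genes were lower in Gfi1-deficient cells for 7 of 16 measured members and higher for 3, against 7.84% and 9.52% of all genes. The lower ones include the iron exporter gene Slc40a1, with 5.83 in Gfi1-deficient and 10.64 in GFP-high cells (27.9-fold), the adhesion gene Vcam1, with 6.26 in Gfi1-deficient and 10.66 in GFP-high cells (21.2-fold), the complement genes C1qa (7.07-fold) and C1qc (at least 7.99-fold), and Cd5l (6.94-fold). In granulocytes Slc40a1 read 11.43, above its GFP-high level, so it does not set GFP-high cells apart from granulocytes. Vcam1 read 7.17 there. Adgre1, a receptor gene used as a macrophage surface marker, read 9.88 in Gfi1-deficient and 7.55 in GFP-high cells (5.02-fold higher). The linear levels of the list, 2 to the power of each value above the floor, summed to 3762 in Gfi1-deficient cells, from 12 of 18 genes, and to 5802 in GFP-high cells, from 15. Eosinophil genes were lower in Gfi1-deficient cells by 2-fold or more for 5 of 7, against 7.84% of all genes. The major basic protein gene Prg2 read 10.54 in Gfi1-deficient and 12.16 in GFP-high cells (3.08-fold lower), the eosinophil peroxidase gene Epx 8.11 in Gfi1-deficient and 10.18 in GFP-high cells (4.19-fold lower), Prg3 7.13 in Gfi1-deficient and 9.38 in GFP-high cells (4.75-fold lower) and Siglecf 5.81 in Gfi1-deficient and 8.14 in GFP-high cells (5.02-fold lower). GFP-low cells read 7.53 for Prg2, and Epx was below the floor there and in granulocytes. Their list summed to 2353 in Gfi1-deficient and 7924 in GFP-high cells. The part that such cells play in the granule and progenitor differences was not tested.

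Markers of lymphoid cells, red cells and platelets were read on both arrays. Of 13 B cell genes 6 were above the floor in Gfi1-deficient and 6 in GFP-high cells, with summed levels of 357 in Gfi1-deficient and 421 in GFP-high cells, and Ms4a1, Pax5 and Ebf1 were below it on both. T cell genes summed to 429 in Gfi1-deficient and 551 in GFP-high cells, with Cd3g and Cd8a below the floor on both. NK cell genes had 0 of 10 above the floor in Gfi1-deficient and 3 in GFP-high cells. Erythroid genes summed to 895 in Gfi1-deficient and 1869 in GFP-high cells, and the member farthest apart was the transferrin receptor gene Tfrc, with 7.0034 in Gfi1-deficient and 9.73 in GFP-high cells (6.64-fold lower). Megakaryocyte genes summed to 345 in Gfi1-deficient and 427 in GFP-high cells. Past 2-fold were 0 of 6, against 9.52% higher and 7.84% lower among all genes. Of the basophil and mast cell list, the histidine decarboxylase gene Hdc, also a neutrophil gene, was lower, with 6.50 in Gfi1-deficient and 10.87 in GFP-high cells (20.7-fold) and 12.23 in granulocytes. Mcpt8 read 7.55 in Gfi1-deficient and 7.78 in GFP-high cells and Cpa3 6.63 in Gfi1-deficient and 6.83 in GFP-high cells. Plasma cell genes summed to 6156 in Gfi1-deficient and 4603 in GFP-high cells, above the other lists of this paragraph. Past 2-fold were again 0 of 6, against the same shares of all genes. The largest terms were Xbp1, a factor of secretory cells, with 11.76 in Gfi1-deficient and 11.48 in GFP-high cells, and the immunoglobulin gene Ighm, with 11.21 in Gfi1-deficient and 10.49 in GFP-high cells. Igha read 7.33 in Gfi1-deficient and 7.66 in GFP-high cells and 10.61 in GFP-low cells. Among dendritic cell genes Clec10a read 8.67 in Gfi1-deficient and 6.0036 in GFP-high cells (6.33-fold higher) and Tcf4 7.69 in Gfi1-deficient and 5.75 in GFP-high cells (3.82-fold higher), while Zbtb46, Xcr1 and Batf3 were not measured.

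Set beside GFP-low cells, which share the Gr1 gate and 1 intact Gfi1 allele with GFP-high cells, the differences of single genes were of several kinds. The comparisons share arrays, so their values are given without a measure of agreement. For S100a4, the difference from GFP-high cells was 6.12 for Gfi1-deficient and 6.11 for GFP-low cells, and for Ccr2 5.57 and 5.56. For Mpo it was -2.25 for Gfi1-deficient and -5.59 for GFP-low cells, and for Elane -1.88 and -4.32. Camp had -6.81 for Gfi1-deficient and -1.76 for GFP-low cells, and Ltf -6.71 and -1.89. Usp18 had 0.85 for Gfi1-deficient and 3.78 for GFP-low cells, and Ifit3 -0.05 and 3.37. S100a4 and Ccr2 thus stood at like distances above GFP-high cells in both populations. Mpo and Elane were less far below in Gfi1-deficient than in GFP-low cells, Camp and Ltf were farther below, and Usp18 and Ifit3 were nearer to their GFP-high level.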

How the data were processed

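Per the labels' protocols, total RNA was isolated with TRIzol and labelled as biotin cRNA for Affymetrix arrays. The values deposited by the authors were taken as log2 expression, 1 value for each of 22690 probe sets and array, from their range of 2.70 to 14.50. The sources used here give no log base, background correction or normalization. Array medians were 5.98 for Gfi1-deficient, 5.96 for GFP-high and 6.01 for GFP-low Gr1-low cells and 5.91 for granulocytes, and the values were used without rescaling. If the authors scaled the arrays to each other, a shift of most genes in a single direction would be hidden. Arrays have no read depth, and 1 array a group limits the precision.

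Probe sets were named from the platform annotation and matched by gene identifier to the RefSeq table of GRCm38.p6, which changed no symbol: 20393 had 1 gene, 20364 of them matched, 691 had several genes and were not used, and 1606 had none. The 24 genes without a chromosome in that table were kept, giving 11984 genes outside chromosomes X and Y. A gene was counted at an absolute log2 difference of 1 or more. The code was tested on simulated data. The members and gene lists were chosen with earlier results of these data known. Named genes were the 10 highest and 10 lowest differences, the 5 markers, the sort genes, the members of each list farthest apart, all members of short lists, and some further list members given for context, which were chosen after their values were seen. Alternatives changed the floor, scaling, probe set choice, chromosomes and call threshold. Python 3.11.15 with pandas 2.3.3 and numpy 2.4.6 was used.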

Additional observations from a re-analysis of the deposited data

Results flagged for a closer look

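The sex-linked genes were left out of the comparison, and 2 of them carried a signal that the other arrays did not. On the array of Gfi1-deficient cells the Y-linked Eif2s3y read 8.31 and the Y-linked Kdm5d 6.08, against 3.67 and 3.27 in GFP-high cells, and both were below the floor in GFP-low cells and granulocytes as well. Xist, transcribed from the silenced X, read 5.80 in Gfi1-deficient and 10.93 in GFP-high cells. The Y-linked Sry did not follow them, reading 6.20 in Gfi1-deficient, 6.19 in GFP-high and 6.38 in GFP-low cells and 6.33 in granulocytes. Its probe set thus read above the floor also on arrays with Eif2s3y and Kdm5d below it. A level just above the floor does not by itself show expression.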

How the results depend on the processing

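Over all alternatives but the call threshold, 544 to 813 genes were at least 2-fold higher and 474 to 682 at least 2-fold lower in Gfi1-deficient cells. A call at 4-fold left 234 higher and 195 lower, since it is stricter by construction. The monocyte median ran from 3.78 to 4.07, the lowest value coming from the lower median probe set of a gene, the primary granule median from -2.09 to -2.06, and the secondary and tertiary granule median from -2.32 to -2.11. All 13 list medians of 2-fold or more kept their sign under the 8 alternatives, but 4 of them came under 2-fold. The C-type lectin median of 1.4958 was 0.18 and the Toll-like receptor median of 1.81 was 0.91 with the floor at the 60th percentile. For dendritic cell genes the median of 1.44 was 0.30 with no floor, and the immediate early median of 1.21 was 0.96 with the floor at the 20th percentile. For Ms4a genes the median of 4.83 was 2.45 with no floor. Of the named genes, bounds moved with the floor, such as Prom1 from -5.88 to -6.81 with the floor at the 20th percentile, and by the lower median probe set Dusp3 at 5.28 was 1.47 and Actn1 at -5.28 was -3.63. By the mean over probe sets Klf5 at -5.55 was -3.38 and Gca at -5.18 was -4.55. The mature neutrophil median of -0.66 was -1.002 with the floor at the 20th percentile, and the chemokine median of 0.23 was 2.15 with the floor at the 60th percentile and -0.10 at the 20th. The median of published Gfi1 targets, 0.25, was -0.03 with the floor at the 60th percentile, that of S100 genes, -0.14, was 0.28 under that floor, and that of chemoattractant receptors, 0.04, was -0.03 at the 20th. No paired analysis was possible because each group has 1 array. The absence of replicates and of the authors' processing steps limits all values, and levels near the floor or the top of the scale understate differences.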
